A study of Mus musculus with 18 samples.

Results

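Epidermal growth factor (EGF) given by itself was set against no addition in C3H10T1/2 cells, a mouse embryo fibroblast line that can turn into fat, bone or muscle cells in culture. The comparison takes 5 of the 18 arrays of the series, chosen by their titles: EGF 1 and EGF 2 against UT 1, UT 2 and UT 3. EGF cultures had received 10 nM EGF for 24 h, with neither TCDD nor the adipogenic mix IDMB. UT cultures are described with none of these additions, although the labels do not spell out the letters UT. Cultures of both groups had been without fresh serum for 72 h and confluent for 24 h when they were collected. Each array carried mRNA pooled from 6 cultures, so the spread between cultures is averaged out before hybridisation. The labels do not say whether arrays of a group came from separate experiments. The p-values therefore measure only the spread between arrays within groups, which may be technical. That spread was pooled over the 8 groups of all 18 arrays. The EGF response was also followed in 3 other settings: EGF+TCDD against TCDD (2 arrays each), IDMB+EGF against IDMB (2 against 3) and IDMB+EGF+TCDD against IDMB+TCDD (2 each). TCDD, a ligand of the aryl hydrocarbon receptor, was given at 10 nM for 72 h. IDMB, given for 24 h, holds insulin, dexamethasone, IBMX and BRL49653, a PPARG agonist.

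EGF binds EGFR, a receptor tyrosine kinase, which recruits the adaptor Grb2 and the exchange factor Sos and so starts the RAS, RAF, MEK and ERK kinase cascade. ERK activity switches on immediate early transcription factors such as Fos and Egr1, keeps the longer-lived AP-1 factor Fosl1 present, and induces its own brakes, among them the ERK phosphatase Dusp6 and the EGFR inhibitor Errfi1. In fibroblasts that have stopped dividing at confluence or without serum, growth factors are known to permit entry into the cell cycle, with replication genes rising ahead of mitotic genes.

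The deposited values are linear intensities in arbitrary units, and a value under 143.5 was set to that floor before log2 was taken. Of 12422 probe sets that are not controls, 7134 passed a filter on low values and were tested, for 5438 genes. Each gene was read from its probe set with the highest mean level, which was tested for 5436 of them, and levels of different genes are not compared. A gene is called higher or lower where the adjusted p (limma, Benjamini-Hochberg over the 7134 probe sets) was under 0.05. Array medians were 827 and 862 with EGF, against 832 to 879 in UT. Across tested probe sets EGF 1 and EGF 2 correlated at r = 0.960, pairs of UT arrays at 0.926 to 0.948, and an EGF array with a UT array at 0.891 to 0.918. The 3' to 5' signal ratio of the Gapdh control, which rises as RNA is degraded, was 1.43 on EGF 1 and 2.47 on EGF 2, against 1.25 to 1.52 on the UT arrays. The same ratio of the actin control was 1.52 and 1.90 with EGF, against 1.37 to 1.43 in UT. With the Gapdh ratio as a covariate 189 probe sets were called in place of 440, and the part of RNA quality was not tested further.

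Most fibroblast markers were detected, with Vim and Fap as exceptions. Of 12 fibroblast markers on the array, 10 were tested. Thy1 and Dcn were called lower (2 of 10, against 2.81% of all genes) and 0 were called higher. Col1a1 read 136231 and 137630 with EGF, against 131291 to 152911 in UT, and the probe sets of the other collagens, Fn1, Sparc and S100a4 were well above the floor on all 5 arrays. The summed level of the 12 was 549423 and 522036 with EGF, against 511558 to 563007 in UT. The probe set of Vim was not tested for its low level (367 and 103 with EGF, 434 to 776 in UT), and that of Fap was under the floor on all 5 arrays. Of tested markers of epithelial (1 of 10), endothelial (2 of 8), macrophage (2 of 9), skeletal muscle (4 of 9), mature fat (2 of 5) and neural cells (2 of 7), 0 were called, and 0 of 5 bone and cartilage markers reached the test. The leukocyte marker Ptprc was under the floor on all 5 arrays, and the epithelial marker Epcam on all except UT 3 (203). Summed macrophage markers were 7287 and 6678 with EGF, against 6822 to 7841 in UT, and epithelial ones 3922 and 5208, against 3981 to 6457. Summed neural markers were 42852 and 41237 with EGF, against 21966 to 27517 in UT, nearly all of it Tubb3 (log2 fold change 0.90, adjusted p = 0.0805). The part of any other cell type in the results was not tested.

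More than 1 in 2 of the tested DNA replication and mitotic genes were called higher with EGF. Some feedback inhibitors and immediate early factors were also higher, and some acute phase, chemokine and contractile genes were lower, with most members of these groups not called. In all, 256 probe sets were higher (3.59% of those tested) and 184 lower (2.58%), or 6.17% together. Counted with 1 probe set for each gene, 224 of 5436 genes were higher (4.12%) and 153 lower (2.81%), or 6.94% together. The median log2 fold change over all tested probe sets was -0.0045, while it was 1.34 among those called higher and -1.06 among those called lower. EGF and UT arrays did not overlap for 1397 probe sets that were higher with EGF (19.6%) and 1287 that were lower (18%). An unadjusted p under 0.05 was reached by 1446 probe sets. The call count rested on single arrays, since 14 probe sets were called without EGF 2, 114 without EGF 1, 105 without UT 2, 367 without UT 1 and 508 without UT 3. In a fit with 1 EGF array left, its spread was taken from the remaining groups.

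**Figure D1:**
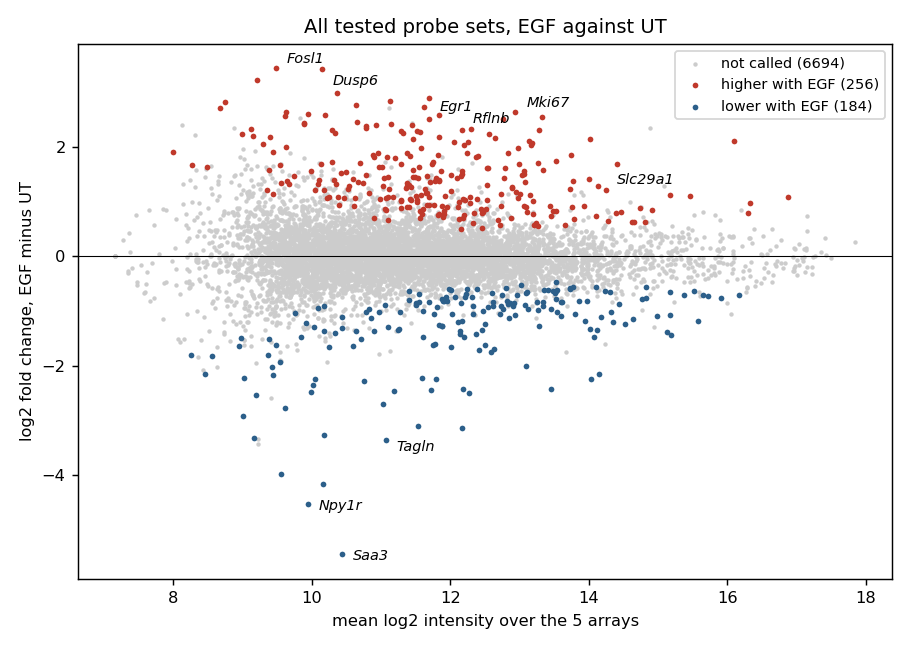
Log2 fold change, EGF minus UT, of the 7134 tested probe sets (vertical) against their mean log2 intensity over the 5 arrays (horizontal). Red points (256) were called higher with EGF and blue points (184) lower at an adjusted p under 0.05, and Fosl1, Dusp6, Saa3 and Npy1r lie farthest out among the labelled genes.

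Only 8 probe sets (0.112%) were called in the full fit and in each of the 5 fits that leave out an EGF or a UT array. The 3 higher ones (0.0421%) were Fosl1, Rflnb and Slc29a1, and the 5 lower ones (0.0701%) were Saa3, Npy1r, Fmo1, Gadd45g and a second probe set of the chemokine gene Cxcl12. Rflnb, whose product binds the actin crosslinker filamin, read 11219 and 12952 with EGF, against 2022, 2192 and 3242 in UT (log2 fold change 2.31, SE 0.25, adjusted p = 0.000263). Slc29a1, the equilibrative nucleoside transporter, read 33023 and 31476 with EGF, against 13924, 12786 and 14988 in UT (1.22, SE 0.16, adjusted p = 0.00131). For both genes the EGF arrays stood close together and well above every UT array. Gadd45g, a growth arrest and stress gene, read 1626 and 2012 with EGF, against 5102, 6220 and 5163 in UT (-1.60, SE 0.25, adjusted p = 0.00423). Fmo1, a flavin monooxygenase, read 1287 and 1503 with EGF, against 4438, 10102 and 6461 in UT (-2.25, SE 0.33, adjusted p = 0.00362). Both fell to under every UT value. The probe set of Cxcl12 called in every fit had a log2 fold change of -2.24 (SE 0.33, adjusted p = 0.00362).

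**Figure D2:**
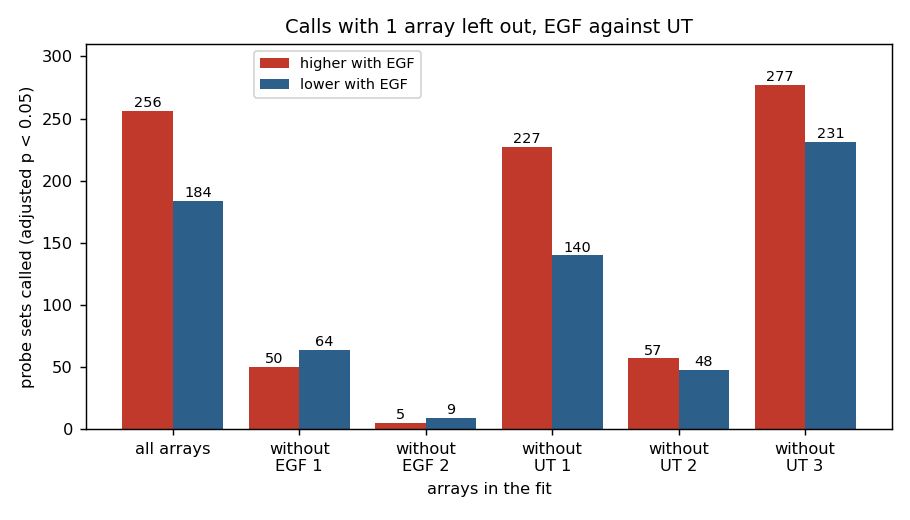
Number of probe sets called higher (red) and lower (blue) with EGF, for all arrays and with each EGF or UT array left out in turn. The full fit gave 256 and 184, and leaving out EGF 2 gave 5 and 9.

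Genes at the receptor itself were not called. Of 9 EGF family ligands, receptors and sheddases on the array, 4 passed the filter and 0 were called, against 6.94% of all genes. Egfr read 1191 and 1223 with EGF, against 1906, 1650 and 1504 in UT (-0.48, SE 0.21, adjusted p = 0.218). Its EGF values lay under all UT values, but the difference did not pass the test. Another probe set of Egfr gave -1.06 (adjusted p = 0.216). The ligand genes Hbegf (0.07, adjusted p = 0.941) and Ereg (0.23, adjusted p = 0.832) differed little between the groups, 1519 and 1767 with EGF for Hbegf, against 1479 to 1646 in UT. The sheddase Adam17 was uneven with EGF (39 and 958) and in UT (464, 207 and 712). Of 15 ERK cascade genes on the array, 11 were tested and 0 were called, against 6.94% of all genes, with a median of -0.24. In lists this short, 0 calls cannot be told from the share over all genes. The largest among them were the kinases Araf (-0.65, adjusted p = 0.172) and Map2k1 (-0.60, adjusted p = 0.127), while the adaptors Grb2 (0.19, adjusted p = 0.818) and Shc1 (-0.19, adjusted p = 0.669) and the GTPase Nras (-0.29, adjusted p = 0.561, and 0.15 by another probe set) were not called.

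Feedback inhibitors of the pathway rose in part. Of 9 tested, 2 were higher and 0 lower, against 4.12% and 2.81% of all genes, with a median of 0.20. Dusp6, which dephosphorylates ERK, read 4790 and 4646 with EGF, against 446, 314 and 611 in UT (3.42, SE 0.52, adjusted p = 0.00398). The lowest EGF value was above the highest UT value by several fold, although the call was lost without EGF 2 (adjusted p = 0.0634). Errfi1, which binds and inhibits EGFR, read 7341 and 6218 with EGF, against 2900, 3109 and 2841 in UT (1.20, SE 0.20, adjusted p = 0.00488), also lost without EGF 2 (0.0591). A second probe set of Errfi1 gave 0.91 (adjusted p = 0.100). Dusp1, a phosphatase of several MAP kinases, read 7432 and 6313 with EGF, against 2534, 3355 and 4158 in UT (1.06, SE 0.33), and missed the threshold (adjusted p = 0.0654). Spred2 had 0.82 (adjusted p = 0.218) and Dusp2 went the other way at -1.15 (adjusted p = 0.319), both without a call. Spry4, an inhibitor upstream of RAF, had -0.43 (adjusted p = 0.320), the ERK-induced survival gene Ier3 0.20 (adjusted p = 0.797) and Socs3, a brake on cytokine receptors, -0.07 (adjusted p = 0.894), or 0.15 (adjusted p = 0.822) by another probe set.

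Immediate early and ERK-linked transcription factors split. Of 17 tested, 4 were higher and 1 was lower, against 4.12% and 2.81% of all genes. The other 12 were not called, and the list median was 0.18. Fosl1, an AP-1 factor stabilised by ERK, read 3217 and 2791 with EGF, against 428, 155 and 318 in UT (3.44, SE 0.40, adjusted p = 0.000568). It had the largest positive log2 fold change of all tested probe sets, and its call held in each of the 5 fits with an array left out (3.02 to 3.75). Egr1, a zinc finger immediate early factor, read 12195 and 7245 with EGF, against 1580, 1670 and 1681 in UT (2.52, SE 0.64, adjusted p = 0.0293). Egr2 of the same family read 3973 and 1683 with EGF, against 413, 454 and 600 in UT (2.42, SE 0.46, adjusted p = 0.00836). For both genes EGF 1 stood above EGF 2 and both stood above all UT arrays. The Egr2 call was lost without EGF 1 (1.80, adjusted p = 0.112), and that of Egr1 was kept only without UT 3 (0.0459). Ier2 read 6901 and 6189 with EGF, against 1667, 2346 and 4007 in UT (1.38, SE 0.40, adjusted p = 0.0493), a call also kept only without UT 3 (0.0191).

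Among the other AP-1 genes listed 1 was called, and it was lower. Jund, often highest in resting cells, was lower at 38554 and 38361 with EGF, against 57103, 73890 and 58766 in UT (-0.71, SE 0.15, adjusted p = 0.0150). It lost its call without EGF 1 (0.0912), EGF 2 (0.134) or UT 2 (0.0813). Jun read 2860 and 2824 with EGF, against 1040, 1515 and 1989 in UT (0.96, SE 0.29), and missed the threshold (adjusted p = 0.0642). Fos read 556 and 532 with EGF, against 279, 216 and 146 in UT (1.40, SE 0.58, adjusted p = 0.182). Jun and Fos thus lay above all UT values without a call. Junb (-0.42, adjusted p = 0.404), Fosb (-0.27, adjusted p = 0.614), Myc (-0.02, adjusted p = 0.977) and Atf3 (-0.21, adjusted p = 0.838) were not called. Probe sets disagreed for the ETS factor Etv4, whose brightest gave -0.18 (adjusted p = 0.716) and whose other was called higher at 2.00 (adjusted p = 0.0440). They disagreed also for Klf10, a zinc finger factor known as a TGF beta early gene, with 1.07 (SE 0.31, adjusted p = 0.0508) by the brightest and 1.53 (adjusted p = 0.0229, called higher) by the other. Both of these calls were lost in at least 1 fit with an array left out. Whether the response of other AP-1 genes differs from that of Fosl1 was not tested.

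**Figure D3:**
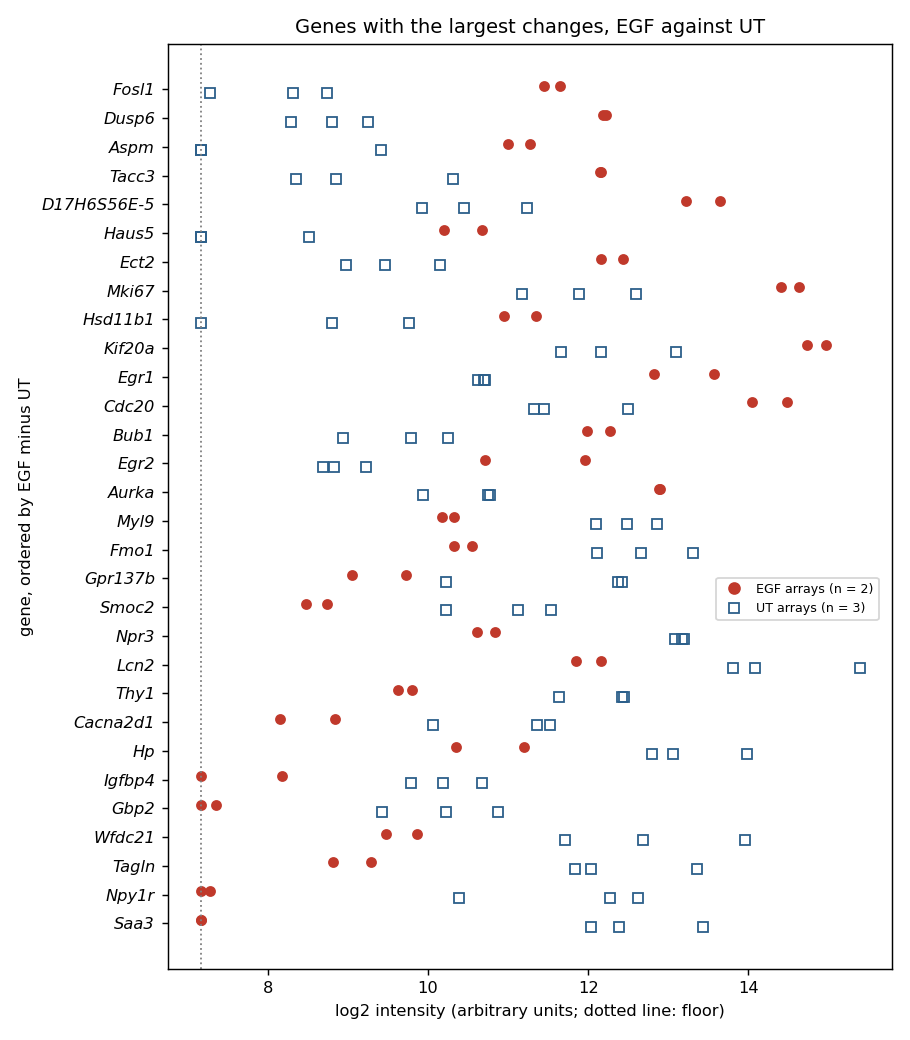
Log2 intensity on each array of the 15 called genes with the largest positive and the 15 with the largest negative fold change among those whose groups do not overlap, EGF arrays as filled red circles and UT arrays as open blue squares. The dotted line is the floor, on which both EGF arrays of Saa3 lie, and Fosl1 and Dusp6 head the list.

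Growth-factor-induced secreted and surface genes showed few calls. Of 12 tested, 0 were higher and 1 was lower, against 4.12% and 2.81% of all genes, with a median of 0.34. The lower gene was Mmp14, a membrane-bound collagenase, at 22105 and 20116 with EGF, against 32075, 41358 and 34846 in UT (-0.77, SE 0.21, adjusted p = 0.0396), kept only without UT 1 (0.0451). Plaur and Plat of the plasminogen system lay above UT without a call. The urokinase gene Plau (448 and 357 with EGF, 298, 527 and 757 in UT) was not tested for its low level, nor was Serpinb2. Plaur, the urokinase receptor, read 1759 and 1632 with EGF, against 849, 419 and 566 in UT (1.53, SE 0.51, adjusted p = 0.0892), and the activator Plat read 6835 and 7602, against 3188, 3419 and 4134 (1.02, SE 0.31, adjusted p = 0.0670). Has2, a hyaluronan synthase, read 922 and 1292 with EGF, against 3948, 7865 and 1558 in UT (-1.74, SE 0.53, adjusted p = 0.0633). The hyaluronan receptor Cd44 (0.31, adjusted p = 0.732), the protease inhibitor Timp1 (0.41, adjusted p = 0.304) and the chromatin factor Hmga2 (0.97, adjusted p = 0.368) were not called either.

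Few regulators of the G1 phase were called. Of 13 G1 cyclins, CDKs and RB family genes tested, 1 was higher and 0 lower, against 4.12% and 2.81% of all genes. The median was -0.0028. Both EGF arrays lay above all UT arrays for 4 of the 13, against 19.6% of all tested probe sets, and under them for 0. The higher gene was Rbl1, which encodes the RB relative p107, at 3748 and 4467 with EGF, against 1406, 746 and 1370 in UT (1.86, SE 0.35, adjusted p = 0.00781), lost without EGF 2 (0.109). Ccnd1, the cyclin most often linked to growth factors, read 17258 and 19009 with EGF, against 12945, 9665 and 13782 in UT (0.59, SE 0.36, adjusted p = 0.390). Its EGF values lay above UT without a call, and another probe set gave 0.03 (adjusted p = 0.982). Tfdp1 (0.67, adjusted p = 0.0856) and Cdk2 (0.51, adjusted p = 0.307) also lay above UT without a call, while Ccnd2 had -0.86 (adjusted p = 0.508). Ccne1 (-0.0038, adjusted p = 0.995) and Cdk4 (-0.12, adjusted p = 0.784) had fold changes near 0. E2f1 had -0.0028 (adjusted p = 0.998) by its brightest probe set and 1.07 (adjusted p = 0.410) by another. The sign of the list median depended on the arrays, with -0.085 to 0.16 when an array was left out.

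Of 20 CDK inhibitors and quiescence genes tested, 0 were higher and 2 lower, against 4.12% and 2.81% of all genes. The median was -0.24. Gadd45b, a stress and growth arrest gene, read 3157 and 2046 with EGF, against 10201, 6938 and 4909 in UT (-1.47, SE 0.38, adjusted p = 0.0317). Mxd4, an antagonist of MYC, read 4817 and 4503 with EGF, against 8651, 9085 and 8433 in UT (-0.90, SE 0.24, adjusted p = 0.0338). Both lay under all UT arrays, and both calls were kept only without UT 3 (0.0191 and 0.0481). A second probe set of Gadd45b gave -0.56 (adjusted p = 0.283). Cdkn2b, the CDK4 and CDK6 inhibitor p15, was under the floor with EGF (34 and 38) and uneven in UT (4550, 3448 and 241), and it was not called (adjusted p = 0.101) unless UT 3 was left out (0.0150). The inhibitors Cdkn1a (-0.38, adjusted p = 0.352) and Cdkn1b (-0.15, adjusted p = 0.898) and the growth arrest genes Gas1 (-0.23, adjusted p = 0.557) and Gas6 (-0.63, adjusted p = 0.201) were not called. Cdkn2c (0.81, adjusted p = 0.0731) and Cdkn2d (1.14, adjusted p = 0.0692), 2 further INK4 inhibitors, were above UT on both EGF arrays without a call.

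DNA replication genes rose with EGF. Of 44 tested, 25 were higher and 0 lower, with a median of 1.23 and with 43 of 44 fold changes above 0; over all genes 4.12% were higher. The helicase subunit Mcm2 read 4902 and 7307 with EGF, against 2339, 1822 and 2364 in UT (1.47, SE 0.27, adjusted p = 0.00685), and Mcm7 read 5286 and 5596, against 2528, 1194 and 2018 (1.57, SE 0.29, adjusted p = 0.00710). Cdt1, which loads the helicase on origins, read 7269 and 10062 with EGF, against 2557, 2675 and 4057 in UT (1.50, SE 0.28, adjusted p = 0.00785). These 3 genes read higher on both EGF arrays than on any UT array, and each lost its call without EGF 2 (0.128, 0.0967 and 0.134). Tk1, the thymidine kinase of S phase, read 19850 and 23603 with EGF, against 7588, 2718 and 6252 in UT (2.10, SE 0.48, adjusted p = 0.0206). Pcna, the sliding clamp, read 20971 and 25180 with EGF, against 14697, 10269 and 11722 in UT (0.93, SE 0.24, adjusted p = 0.0312). The ribonucleotide reductase subunits Rrm1 (1.56, adjusted p = 0.0263) and Rrm2 (1.44, adjusted p = 0.0361) and the checkpoint kinase Chek1 (1.32, adjusted p = 0.0311) were also higher. Tk1, Pcna, Rrm1, Rrm2 and Chek1 lost their calls without EGF 1 (0.0912 to 0.120), EGF 2 (0.175 to 0.291) or UT 2 (0.0916 to 0.151), and Pcna also without UT 3 (0.0538). The uracil glycosylase Ung was the single tested member with a negative fold change (-0.18, adjusted p = 0.695), and another of its probe sets gave 0.40 (adjusted p = 0.557).

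The size of the replication response was steadier than its calls. For 41 of the 44 genes both EGF arrays lay above all UT arrays, against 19.6% of all tested probe sets. The signs of these genes could not turn with an array left out. Leaving out an EGF or UT array gave medians of 1.01 to 1.37 and 43 positive fold changes in each of the 5 fits, while the number called was 6 without EGF 1, 0 without EGF 2, 22 without UT 1, 4 without UT 2 and 21 without UT 3. With the Gapdh 3' to 5' ratio as a covariate 7 were called, with a median of 1.18. The mean level of the 44 genes, relative to the mean of the 5 arrays, was 0.60 on EGF 1 and 0.81 on EGF 2, against -0.28, -0.81 and -0.32 on UT 1, 2 and 3 (log2).

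Genes of G2 and mitosis rose with EGF and had the highest median of the 20 lists. Of 45 tested, 33 were higher and 0 lower, with a median of 1.85, against 4.12% of all genes higher. Of the 45 fold changes 44 were above 0, and for 43 genes both EGF arrays lay above all UT arrays, against 19.6% of all tested probe sets. Mki67, the proliferation marker Ki-67, read 21760 and 25463 with EGF, against 6201, 2316 and 3770 in UT (2.64, SE 0.64, adjusted p = 0.0256). Cdk1, the kinase that drives entry into mitosis, read 37559 and 43198 with EGF, against 12962, 6496 and 8956 in UT (2.15, SE 0.46, adjusted p = 0.0144). Cdc20, an activator of the anaphase-promoting complex, read 22904 and 16884 with EGF, against 5790, 2570 and 2786 in UT (2.51, SE 0.53, adjusted p = 0.0132). In all 3 genes UT 1 was the highest UT array and still lay under both EGF arrays. The spindle kinase Aurka read 7591 and 7585 with EGF, against 1751, 980 and 1726 in UT (2.40, SE 0.58, adjusted p = 0.0241). The kinesin Kif20a, which acts in cytokinesis, read 27174 and 31908 with EGF, against 8735, 3233 and 4591 in UT (2.54, SE 0.53, adjusted p = 0.0128). Ncaph, a condensin subunit, read 4862 and 4614 with EGF, against 949, 688 and 1164 in UT (2.38, SE 0.46, adjusted p = 0.00836). These 6 genes lost their calls without EGF 1 (0.0642 to 0.120) or EGF 2 (0.0967 to 0.195), and all except Ncaph without UT 2 (0.0682 to 0.110).

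Other roles of mitosis were represented as well. The spindle factor Tacc3 (2.98, adjusted p = 0.0182), the checkpoint kinase Bub1 (2.46, adjusted p = 0.0351), the cytokinesis exchange factor Ect2 (2.77, adjusted p = 0.0195), the topoisomerase Top2a (2.32, adjusted p = 0.0196) and the centromere histone Cenpa (1.82, adjusted p = 0.0227) were higher. Cyclins Ccna2 (1.25, adjusted p = 0.0338) and Ccnb2 (1.74, adjusted p = 0.0148) were higher too. Among the 12 not called, Aurkb had 1.35 (adjusted p = 0.0793). For 2 others the count rests on the choice of probe set. Plk1, a mitotic kinase, had 1.60 (adjusted p = 0.113) by its brightest probe set, while 2 others were called higher at 2.41 (adjusted p = 0.0235) and 2.85 (adjusted p = 0.0154). The transcription factor Foxm1 had 1.43 (adjusted p = 0.0694) by its brightest and was called higher at 2.70 (adjusted p = 0.0371) by another, with 1 UT array at the floor. These 3 calls were also lost in at least 1 fit with an array left out. Incenp had 1.85 (adjusted p = 0.0186) by its brightest probe set and 0.47 (adjusted p = 0.464) by another. The 8 genes called by their brightest probe sets in this paragraph lost their calls without EGF 1 (0.0789 to 0.150), EGF 2 (0.134 to 0.246) or UT 2 (0.0682 to 0.139), and Ccna2 also without UT 3 (0.0527).

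The mitotic calls depended on which arrays were kept, and the size of the fold changes less so. Signs could not turn in these fits for the 43 genes whose EGF arrays both lay above all UT arrays. The number called was 1 without EGF 1, 0 without EGF 2, 36 without UT 1, 2 without UT 2 and 32 without UT 3, with medians of 1.73 to 2.13 and at least 44 positive fold changes each time. Mki67, for example, had an adjusted p of 0.112 without EGF 1, 0.195 without EGF 2 and 0.110 without UT 2. With the Gapdh ratio as a covariate 4 were called and the median was 1.80. The list level relative to the 5-array mean was 1.07 on EGF 1 and 1.09 on EGF 2, against -0.29, -1.17 and -0.71 on UT 1, 2 and 3 (log2), so the UT arrays spread widely and the EGF arrays lay together. Bulk RNA cannot tell more dividing cells from more of these transcripts in each cell.

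**Figure D4:**
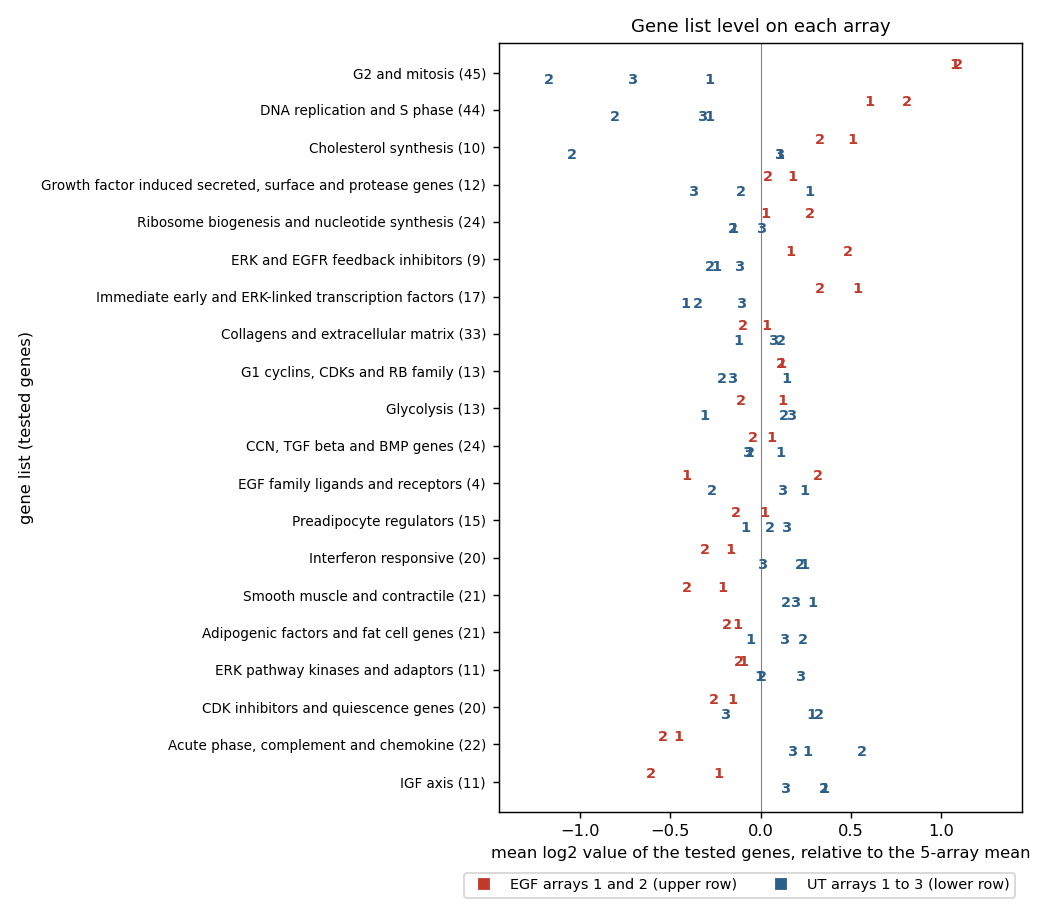
Mean log2 level of the tested genes of each list on each array, relative to the mean of the 5 arrays, with red numerals for EGF arrays 1 and 2 and blue numerals for UT arrays 1 to 3; lists run down the page from the highest to the lowest median fold change. For G2 and mitosis the EGF arrays lie at 1.07 and 1.09 and the UT arrays between -1.17 and -0.29.

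Promoters of mitotic genes are known to share a CHR element, often near a CCAAT box, through which the DREAM and MuvB complexes and NF-Y act. The 250 bases upstream of each RefSeq start (GRCm38.p6) were searched on both strands for TTTGAA (the CHR core) and for CCAAT, which can share at most an end base, using the first window listed for a gene. Of the 45 tested G2 and mitosis genes 35 had a window, and 15 of these held the CHR core (42.9%), against 10.8% of the 4408 tested genes with a window and 16.3% of all 27025 genes. CCAAT was found in 26 of 35 (74.3%), against 36.9% and 34.5%, and both motifs in 14 of 35 (40%), against 4.33% and 5.73%. Of the 40 replication genes with a window, 5 held the CHR core (12.5%) and 25 held CCAAT (62.5%). A match is a run of letters and not a shown site. Stretches up to the start are given for 5 of the mitotic genes described above, 4 with the CHR core and Aurka without it, to show how the motifs lie. Capitals mark the CHR core and CCAAT on either strand (TTCAAA and ATTGG on the opposite strand).
Cdc20 (chr4:118437344-118437463, minus strand): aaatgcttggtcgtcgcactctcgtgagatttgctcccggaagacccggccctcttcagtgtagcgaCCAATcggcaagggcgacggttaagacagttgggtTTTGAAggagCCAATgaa
Cdk1 (chr10:69352913-69353032, minus strand): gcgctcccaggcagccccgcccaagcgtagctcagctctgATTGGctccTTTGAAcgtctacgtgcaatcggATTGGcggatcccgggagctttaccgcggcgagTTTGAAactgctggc
Top2a (chr11:99024190-99024309, minus strand): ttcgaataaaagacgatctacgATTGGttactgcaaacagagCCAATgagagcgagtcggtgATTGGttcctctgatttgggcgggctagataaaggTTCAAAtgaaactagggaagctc
Mki67 (chr7:135716380-135716529, minus strand): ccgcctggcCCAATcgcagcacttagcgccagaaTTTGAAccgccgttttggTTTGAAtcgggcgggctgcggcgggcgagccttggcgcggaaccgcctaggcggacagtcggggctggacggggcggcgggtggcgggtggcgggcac
Aurka (chr2:172370571-172370690, minus strand): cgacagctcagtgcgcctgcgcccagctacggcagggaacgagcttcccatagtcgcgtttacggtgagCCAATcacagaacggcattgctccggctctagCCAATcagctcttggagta

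Growth and metabolic genes gave few calls. Of 24 ribosome biogenesis and nucleotide synthesis genes tested, 1 was higher and 2 lower, against 4.12% and 2.81% of all genes. The median was 0.28. Nop56, a nucleolar protein of ribosome assembly, read 4791 and 7998 with EGF, against 2376, 2544 and 3903 in UT (1.11, SE 0.27, adjusted p = 0.0241), and its fold change was 0.74 without EGF 2 (adjusted p = 0.327). The call was also lost without UT 1 (0.0629) or UT 2 (0.0966). Ctps, a CTP synthase, read 9723 and 9498 with EGF, against 31824, 24634 and 17679 in UT (-1.32, SE 0.25, adjusted p = 0.00836), lost without EGF 1 (0.0548) or EGF 2 (0.0986). The nucleolar chaperone Npm1 was lower (-0.66, adjusted p = 0.0392), kept only without UT 3 (0.0204). Of 13 glycolysis genes tested 0 were called, against 6.94% of all genes. Slc2a1, the glucose transporter, had -0.07 (adjusted p = 0.938) and Ldha 0.24 (adjusted p = 0.745). Of 10 cholesterol synthesis genes tested 0 were called, against the same 6.94%, with a median of 0.71 and 9 fold changes above 0. In lists this short, 0 calls cannot be told from that share. In that list UT 2 stood apart, at -1.05 relative to the 5-array mean, against 0.51 and 0.33 with EGF and 0.10 and 0.11 on UT 1 and UT 3. Sqle, the squalene epoxidase, read 6787 and 7846 with EGF, against 3215, 1539 and 6214 in UT (1.22, adjusted p = 0.0841).

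Contractile genes were lower with EGF in part. Of 21 tested, 6 were lower and 0 higher, with a median of -0.20; over all genes 2.81% were lower. Tagln, an actin-binding protein of smooth muscle and of activated fibroblasts, read 625 and 450 with EGF, against 10505, 3641 and 4201 in UT (-3.36, SE 0.56, adjusted p = 0.00488). Myl9, a myosin regulatory light chain, read 1153 and 1287 with EGF, against 7413, 5728 and 4396 in UT (-2.23, SE 0.55, adjusted p = 0.0259). In both genes the EGF arrays lay far under every UT array, the Tagln call being lost without EGF 2 (0.0935) and that of Myl9 kept only without UT 3 (0.0299). Acta2, smooth muscle actin, read 42184 and 46738 with EGF, against 76660, 84662 and 67138 in UT (-0.77, SE 0.19, adjusted p = 0.0293), kept only without UT 3 (0.0281). Tpm1, a tropomyosin, read 25990 and 21654 with EGF, against 51266, 52005 and 45848 in UT (-1.06, SE 0.21, adjusted p = 0.00836). Fhl1, a LIM domain protein of muscle, read 8417 and 10286 with EGF, against 25970, 23436 and 28816 in UT (-1.48, SE 0.26, adjusted p = 0.00569). The calponin Cnn2 was lower as well (-1.12, adjusted p = 0.0235). Without EGF 2 the calls of Tpm1 (0.134), Fhl1 (0.0634) and Cnn2 (0.212) were lost, as were those of Fhl1 (0.0548) and Cnn2 (0.0906) without EGF 1 and that of Cnn2 without UT 1 (0.0598) or UT 2 (0.0706). Tpm2 went the other way without a call (0.61, adjusted p = 0.0563), and Cnn3 (-0.07), the myosin Myh9 (-0.17) and the actinin Actn1 (-0.12) stayed near 0. The number called lower was 2 without EGF 1, 0 without EGF 2, 3 without UT 1, 3 without UT 2 and 7 without UT 3, and 6 with the Gapdh ratio as a covariate.

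The CArG box, 10 bases bound by serum response factor (SRF), is a known element of both contractile and immediate early genes. In the 250 bases upstream of the start it was found in 5 of 18 tested contractile genes with a window (27.8%), against 1.23% of tested genes and 1.4% of all genes. It was found in 0 of 10 immediate early and ERK-linked factors by their first listed window. Egr2 has 5 windows, of which 3 hold a CArG box within the 120 bases before the start. The Myl9 stretch and 1 of these 3 Egr2 stretches are shown because the gene fell with EGF in the first case and rose in the second, and capitals mark the CArG box.
Myl9 (chr2:156775264-156775463, plus strand): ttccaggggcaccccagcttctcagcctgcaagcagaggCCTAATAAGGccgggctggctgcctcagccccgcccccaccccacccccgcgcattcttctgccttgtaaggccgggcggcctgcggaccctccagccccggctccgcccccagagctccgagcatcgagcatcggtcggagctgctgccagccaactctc
Egr2 (chr10:67537749-67537868, plus strand): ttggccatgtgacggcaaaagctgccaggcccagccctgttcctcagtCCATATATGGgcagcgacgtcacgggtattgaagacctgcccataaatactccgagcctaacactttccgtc

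The main matrix genes were not called. Of 33 collagen and matrix genes tested, 1 was higher and 2 lower, against 4.12% and 2.81% of all genes, with a median of 0.10. Col1a1 (-0.03, adjusted p = 0.945, and 0.29 by another probe set), Col1a2 (-0.02, adjusted p = 0.970), Col3a1 (0.30, adjusted p = 0.555) and the fibronectin gene Fn1 (0.04, adjusted p = 0.913) were not called. Col4a1, a basement membrane collagen, was higher at 29988 and 35912 with EGF, against 19904, 20499 and 23875 in UT (0.62, SE 0.15, adjusted p = 0.0268), kept only without UT 3 (0.0233). Dcn, the small proteoglycan decorin, was lower at 3545 and 2449 with EGF, against 7358, 11975 and 8452 in UT (-1.62, SE 0.34, adjusted p = 0.0124), lost without EGF 2 (0.171) or UT 2 (0.0693). Lox, which crosslinks collagen, was lower at 31070 and 32661, against 57644, 44909 and 53840 (-0.70, SE 0.20, adjusted p = 0.0467), a call lost in each of the 5 fits with an array left out (0.0813 to 0.219). A second probe set of Lox gave -0.87 (adjusted p = 0.466).

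Matricellular and BMP pathway genes moved in both directions. Of 24 CCN, TGF beta and BMP genes tested, 2 were higher and 3 lower, against 4.12% and 2.81% of all genes. The median was -0.03. Ccn2 (CTGF), a matricellular protein, read 3121 and 3391 with EGF, against 1859, 998 and 850 in UT (1.48, SE 0.42, adjusted p = 0.0459), kept only without UT 1 (0.0276). Ccn5 of the same family read 2946 and 3514 with EGF, against 9047, 8787 and 6855 in UT (-1.34, SE 0.26, adjusted p = 0.00836). The family thus held a higher and a lower member, while Ccn1 (-0.19, adjusted p = 0.835), Ccn3 (1.28, adjusted p = 0.443) and Ccn4 (-0.16, adjusted p = 0.798) were not called. Bmp4, a secreted factor that can commit these cells to fat or bone, read 8547 and 12094 with EGF, against 27411, 21260 and 30128 in UT (-1.35, SE 0.27, adjusted p = 0.0107). Fst, the secreted activin antagonist follistatin, read 2817 and 3142 with EGF, against 11613, 8896 and 9676 in UT (-1.75, SE 0.31, adjusted p = 0.00683). Id1, a helix-loop-helix inhibitor and BMP target, was higher at 14728 and 13790, against 6873, 6441 and 7869 (1.02, SE 0.23, adjusted p = 0.0215). Ccn5, Bmp4 and Fst lost their calls without EGF 1 (0.0877, 0.116 and 0.0536) or EGF 2 (0.0879, 0.0762 and 0.0834), and Id1 without EGF 1 (0.121), EGF 2 (0.139) or UT 2 (0.0885). A second probe set of Bmp4 gave -0.91 (adjusted p = 0.0602).

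Some acute phase and chemokine genes were lower with EGF. Of 22 tested, 7 were lower, 1 was higher and 14 were not called, with a median of -0.39; over all genes 2.81% were lower. Saa3, a serum amyloid A gene, was under the floor with EGF (38 and 86) and read 4191, 11059 and 5354 in UT. It was at least 43.8-fold lower with EGF (log2 fold change -5.45 from the floor, SE 0.40, adjusted p = 2.41e-06), the lowest of all tested probe sets. Lcn2, an iron-siderophore carrier, read 4582 and 3680 with EGF, against 14371, 42813 and 17382 in UT (-2.42, SE 0.36, adjusted p = 0.00362). Hp, the haemoglobin-binding haptoglobin, read 2346 and 1303 with EGF, against 8506, 16181 and 7125 in UT (-2.51, SE 0.42, adjusted p = 0.00488). In all 3 genes UT 2 was the highest array, and the calls of Lcn2 (0.0634) and Hp (0.0967) were lost without EGF 2. A second, dim probe set of Lcn2 gave -0.33 (adjusted p = 0.597). Vcam1 counts as not called by its brightest probe set (-0.03, adjusted p = 0.968). Its other probe sets gave -1.29 (adjusted p = 0.0182, called lower) and -0.75 (adjusted p = 0.101). The complement inhibitor Serping1 was lower at 1134 and 1047 with EGF, against 2581, 3297 and 2566 in UT (-1.36, SE 0.34, adjusted p = 0.0267), lost without EGF 1 (0.116), EGF 2 (0.202) or UT 2 (0.110).

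Among chemokines the direction differed between members. Ccl9 read 9222 and 5928 with EGF, against 25984, 54818 and 25210 in UT (-2.16, SE 0.43, adjusted p = 0.0100). Cxcl12, a ligand of CXCR4, read 28474 and 31086 with EGF, against 62861, 75688 and 65358 in UT (-1.19, SE 0.21, adjusted p = 0.00609), and its 2 other probe sets gave -2.24 (called) and -0.65 (adjusted p = 0.153). Cxcl1, a neutrophil chemokine, read 17903 and 22646 with EGF, against 61197, 74563 and 32249 in UT (-1.39, SE 0.30, adjusted p = 0.0148), and -0.98 (adjusted p = 0.0634) by its other probe set. Each of these lay under all UT arrays. Cx3cl1, the membrane-anchored fractalkine, was higher at 15913 and 11989 with EGF, against 3378, 4724 and 5770 in UT (1.61, SE 0.29, adjusted p = 0.00685), and 1.10 (adjusted p = 0.462) by its other probe set. Ccl2, a monocyte chemokine, read 34352 and 35650 with EGF, against 52741, 33709 and 32854 in UT (-0.15, adjusted p = 0.913), so its groups overlapped. The calls of Ccl9 (0.153), Cxcl12 (0.0834), Cxcl1 (0.0967) and Cx3cl1 (0.0653) by their brightest probe sets were lost without EGF 2. Those of Cxcl12 (0.0528), Cxcl1 (0.121) and Cx3cl1 (0.0767) were lost without EGF 1, and those of Ccl9 (0.0518) and Cxcl1 (0.0762) without UT 2. The number of the list called lower was 4 without EGF 1, 1 without EGF 2, 7 without UT 1, 4 without UT 2 and 8 without UT 3, and 6 with the Gapdh ratio as a covariate.

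Interferon-responsive genes gave a single call. Of 20 tested, 0 were higher and 1 was lower, against 4.12% and 2.81% of all genes, with a median of -0.17. Gbp2, an interferon-induced GTPase, read 163 and 91 with EGF, against 1886, 1196 and 691 in UT (-2.92, SE 0.77, adjusted p = 0.0343), with 1 EGF array at the floor, and it was kept only without UT 3 (0.0302). Its relative Gbp3 read 316 and 423, against 1442, 830 and 687 (-1.36, adjusted p = 0.0670). Ifit1 (-1.31, adjusted p = 0.148), Isg15 (-0.35, adjusted p = 0.739) and the class I genes H2-D1 (0.14, adjusted p = 0.751, and -0.08 and 0.35 by other probe sets) and B2m (-0.12, adjusted p = 0.780) were not called.

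Fat cell and preadipocyte genes changed in few members. Of 21 adipogenic factors and fat cell genes tested, 0 were higher and 2 lower, against 4.12% and 2.81% of all genes. The median was -0.22. Fabp4, a fatty acid carrier of fat cells, read 260 and 279 with EGF, against 745, 597 and 998 in UT (-1.50, SE 0.37, adjusted p = 0.0258), kept only without UT 1 (0.0478). Plin4, a lipid droplet coat protein, read 296 and 120 with EGF, against 796, 1441 and 789 in UT (-2.23, SE 0.61, adjusted p = 0.0410), with 1 EGF array at the floor and kept only without UT 3 (0.0487). The master regulators Pparg (-0.78, adjusted p = 0.273), Cebpa (1.27, adjusted p = 0.102) and Cebpb (-0.47, adjusted p = 0.153) and the lipase gene Lpl (-1.84, adjusted p = 0.152) were not called. Of 15 preadipocyte regulators tested, 1 was higher and 1 lower, against 4.12% and 2.81% of all genes, with a median of -0.11. Notch1, a receptor that holds progenitors undifferentiated in several tissues, read 7335 and 7031 with EGF, against 1678, 2235 and 3816 in UT (1.56, SE 0.26, adjusted p = 0.00488), lost without EGF 2 (0.0778). Sfrp1, a secreted Wnt antagonist, read 1160 and 1667 with EGF, against 4787, 3510 and 2596 in UT (-1.34, SE 0.29, adjusted p = 0.0142), lost without EGF 1 (0.138), EGF 2 (0.0834) or UT 2 (0.0585). The preadipocyte factor Dlk1 (0.34, adjusted p = 0.504) and the receptor Pdgfra (-0.63, adjusted p = 0.208, and 0.49 by another probe set) were not called. Of 11 IGF axis genes tested 0 were higher and 1 was lower, against 4.12% and 2.81% of all genes, with a median of -0.41. The lower gene was Igfbp4, an IGF carrier, at 291 and 137 with EGF, against 886, 1636 and 1171 in UT (-2.54, SE 0.53, adjusted p = 0.0130), with 1 EGF array at the floor and lost without EGF 2 (0.180) or UT 2 (0.0682).

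Several of the largest changes lay outside these lists. Npy1r, a neuropeptide Y receptor, read 140 and 155 with EGF, against 4926, 6280 and 1338 in UT (-4.54, SE 0.64, adjusted p = 0.00355), with 1 EGF array at the floor. Wfdc21, a small secreted protein, read 711 and 935 with EGF, against 3366, 15867 and 6559 in UT (-3.11, SE 0.57, adjusted p = 0.00710). Npr3, the clearance receptor of natriuretic peptides, read 1570 and 1824 with EGF, against 9212, 9369 and 8646 in UT (-2.42, SE 0.48, adjusted p = 0.0100), and a dimmer probe set gave -1.64 (adjusted p = 0.123). The UT arrays were nearly level for Npr3 and spread more than 4-fold for Wfdc21 and Npy1r. The surface glycoprotein Thy1 (-2.46, adjusted p = 0.0320), the calcium channel subunit Cacna2d1 (-2.48, adjusted p = 0.0132), the matrix protein Smoc2 (-2.35, adjusted p = 0.0229) and Gpr137b (-2.29, adjusted p = 0.0343) were also among the 15 lowest. On the higher side, Hsd11b1, which regenerates active glucocorticoid, read 1979 and 2613 with EGF, against 98, 869 and 448 in UT (2.57, SE 0.53, adjusted p = 0.0116), with 1 UT array at the floor. The spindle genes Aspm (3.22, adjusted p = 0.0424) and Haus5 (2.82, adjusted p = 0.00929) each had 2 of 3 UT arrays at the floor, and D17H6S56E-5 had 2.90 (adjusted p = 0.0107). Except for Npy1r, every gene of this paragraph lost its call without EGF 2 (0.0834 for Wfdc21 to 0.291 for Gpr137b). Thy1, Smoc2 and Gpr137b kept it only without UT 3 (0.0316, 0.0140 and 0.00418), and Aspm only without UT 1 (0.0201).

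The same EGF contrast could be read in cultures that had also received TCDD or IDMB, with no array shared between the contrasts but with 1 estimate of spread for all. EGF+TCDD against TCDD had 250 calls (3.5%), of which 114 were higher (1.6%) and 136 lower (1.91%). IDMB+EGF against IDMB had 271 (3.8%), with 137 higher (1.92%) and 134 lower (1.88%). IDMB+EGF+TCDD against IDMB+TCDD had 20 (0.28%), with 11 higher (0.154%) and 9 lower (0.126%). Of the 440 probe sets called for EGF alone, 339 had the same sign under TCDD (77%, against 56.6% of all tested), 362 under IDMB (82.3%, against 60.9%) and 315 under both (71.6%, against 55%). Called in the same direction in both contrasts were 20 under TCDD (4.55% of the calls for EGF alone and 8% of those under TCDD). Under IDMB they were 43 (9.77% and 15.9%), and under both additions 2 (0.455% and 10%). The G2 and mitosis list had a median of 0.64 under TCDD and 0.74 under IDMB, against 1.85 for EGF alone, with 0 of 45 called in either, and 0 of 45 were called in the test of either difference.

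The EGF effect under TCDD minus the EGF effect alone was called for 26 probe sets, 19 above 0 (0.266%) and 7 below (0.0981%), together 0.364%; 1139 had an unadjusted p under 0.05. Saa3 changed by 0.35 with EGF under TCDD, against -5.45 alone, a difference of 5.80 (SE 0.60, adjusted p = 0.000284). Its mean log2 level was 10.02 in EGF+TCDD and 9.67 in TCDD, against 7.16 in EGF and 12.62 in UT. Both EGF arrays were at the floor, and the TCDD mean lay under the UT mean. Lcn2 changed by 0.23 under TCDD, against -2.42 alone (difference 2.65, SE 0.53, adjusted p = 0.0439). Rflnb changed by -0.22, against 2.31 alone (difference -2.53, SE 0.37, adjusted p = 0.0126). Slc29a1 changed by -0.05, against 1.22 (difference -1.27, SE 0.23, adjusted p = 0.0306), and Cx3cl1 by -0.74, against 1.61 (difference -2.35, SE 0.43, adjusted p = 0.0320). For Fosl1 the effect was 0.77, against 3.44 (difference -2.67, SE 0.60), and it missed the threshold (adjusted p = 0.0628). This count was 1 with the Gapdh ratio as a covariate, 13 after median scaling and 1 to 113 with an array left out. The Gapdh ratio was 2.71 and 2.34 in EGF+TCDD, against 0.919 and 0.854 in TCDD.

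The EGF effect under IDMB minus the EGF effect alone was called for 18 probe sets, 8 above 0 (0.112%) and 10 below (0.14%), together 0.252%; 878 had an unadjusted p under 0.05. Fosl1 changed by 0.10 with EGF under IDMB, against 3.44 alone, a difference of -3.33 (SE 0.57, adjusted p = 0.0196). Its mean log2 level was 11.49 in IDMB+EGF and 11.38 in IDMB, against 11.55 in EGF and 8.11 in UT, so UT was the lowest of the 4 groups. Ccn5 changed by 1.36 under IDMB, against -1.34 alone (difference 2.70, SE 0.37, adjusted p = 0.00565). Gadd45g changed by 0.37, against -1.60 (difference 1.97, SE 0.36, adjusted p = 0.0226), and Cxcl12 by 0.76, against -1.19 (difference 1.95, SE 0.30, adjusted p = 0.0150). Orc2, an origin recognition subunit, changed by -2.06, against 1.91 (difference -3.97, SE 0.66, adjusted p = 0.0196). Orc2 read 122, 164 and 140 in UT, with 2 of these 3 arrays at the floor, so the size of its change and of the difference depends on the floor. Ccn5, Gadd45g, Cxcl12 and Orc2 had opposite signs in the 2 settings. The Orc2 call for EGF alone was lost without EGF 1 (0.255), EGF 2 (0.0834) or UT 2 (0.0762). With only the 4 groups in the fit 0 probe sets were called, and the count was 1 to 35 with an array left out.

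**Figure D5:**
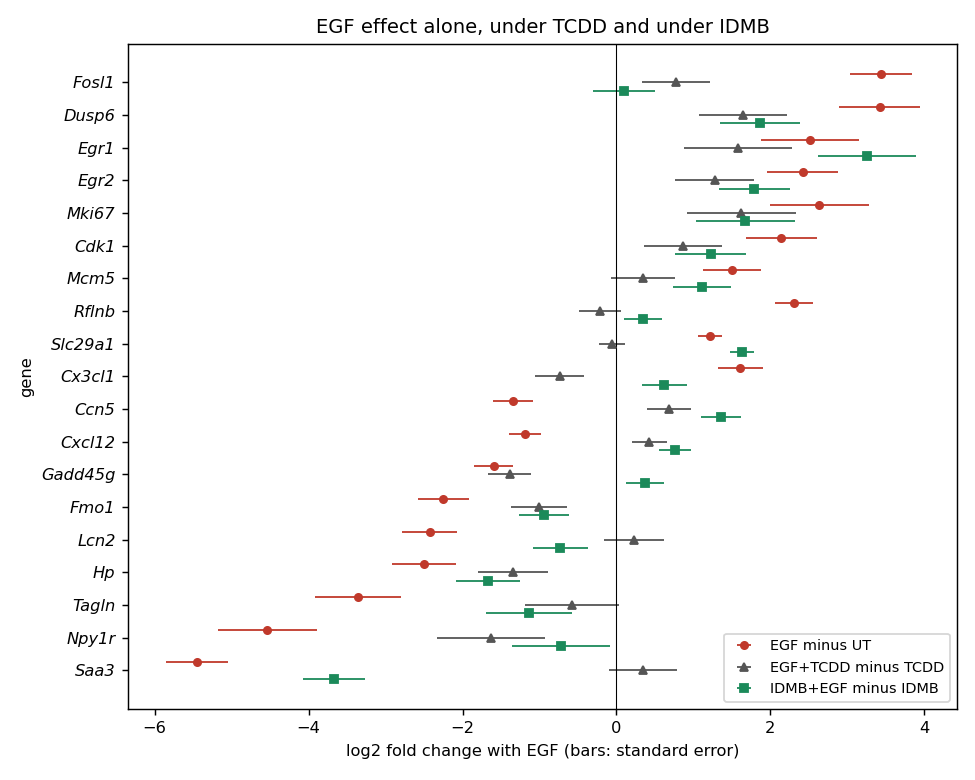
Log2 fold change with EGF (horizontal, bars are standard errors) of 19 genes in EGF against UT (red circles), EGF+TCDD against TCDD (grey triangles) and IDMB+EGF against IDMB (green squares). Saa3 lies at -5.45, 0.35 and -3.67 in the 3 contrasts, and Fosl1 at 3.44, 0.77 and 0.10.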

How the data were processed

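Of the 18 mouse arrays, 2 EGF and 3 UT arrays make up the comparison and 13 others entered the fit. The values are linear intensities as deposited by the authors, per the labels from arrays of pooled mRNA, and the sources used here do not name the software that made them. Their mean after trimming 2% lay between 2501 and 2502 on each array, so they are taken as already scaled. Intensities were floored at the 20th percentile (143.5) and put on the log2 scale. Probe sets were tested where the highest of the 8 group means reached the median. A model of group means over 18 arrays was fitted with limma 3.58.1 (eBayes with trend) in R 4.3.3, with Benjamini-Hochberg adjustment. Fold changes are EGF minus UT. Depth does not apply to arrays, and their number limits precision. On simulated data of 7134 probe sets, 44% of changes of log2 1 and 87% of changes of log2 2 were recovered. There, 10 of 141 calls were false. The simulated noise was independent between probe sets, without shifts shared across an array, so these rates need not hold for the real arrays. Symbols came from the platform annotation (10855 probe sets with 1 symbol, 396 with several, 1193 with none), of which 10839 matched RefSeq by Entrez number. Promoter windows are RefSeq's (GRCm38.p6).

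The genes and lists were chosen with earlier results of these data known. Named genes are Fosl1, Dusp6 and Mki67, anchors and called members of the lists, up to 15 genes in each direction with the largest change and no overlap, genes called in every fit with an array left out, and up to 5 in each direction for each difference of EGF effects. Alternatives were median and quantile scaling, other floors and filters, no trend, only the groups compared, the Gapdh ratio as a covariate, a replicate block and each array left out. A fit without the 2 TCDD arrays and the counts by list were added after the data were seen.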

Additional observations from a re-analysis of the deposited data

Results flagged for a closer look

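The EGF effect under TCDD differed from the EGF effect alone, by the test of the difference in limma, for the 9 genes named here out of 26 probe sets called. The difference (log2, EGF+TCDD minus TCDD, less EGF minus UT) was 5.80 for Saa3, 3.59 for the TNF family ligand Cd70, 2.65 for Lcn2, 2.04 for the carboxypeptidase inhibitor Lxn and 2.02 for Ccn5. It was -2.53 for Rflnb, -2.35 for Cx3cl1, -1.29 for the peroxisomal ATPase Pex6 and -1.27 for Slc29a1. Cd70 changed by 1.57 under TCDD, against -2.02 alone, Lxn by 0.89, against -1.16, and Pex6 by -0.80, against 0.48. With the Gapdh ratio as a covariate 1 difference was called, and the part of RNA quality in the 9 was not tested further.

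The EGF effect under IDMB differed in the same test for the 10 genes named here out of 18 probe sets called. The difference was 2.70 for Ccn5, 1.97 for Gadd45g, 1.95 for Cxcl12, 1.66 for the ephrin receptor Ephb6 and 1.53 for the receptor Notch3. It was -3.97 for Orc2, -3.33 for Fosl1, -2.17 for the atypical MAP kinase Mapk6, -2.04 for the ribosome assembly factor Rrs1 and -1.98 for the oxysterol-binding protein gene Osbpl11. Mapk6 changed by -2.07 under IDMB, against 0.10 alone, so its difference came from the IDMB arrays. Rrs1 changed by -1.58, against 0.46, and Osbpl11 by -1.66, against 0.32.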

How the results depend on the processing

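No named gene that was called in the full fit or under an alternative changed sign between them. Genes not called near 0 did change sign with an array left out, such as Grb2 (-0.18 to 0.54) and Myc (-0.14 to 0.13). The 440 calls became 184 without the filter on low values, 232 with only the 5 arrays fitted and 189 with the Gapdh ratio as a covariate, which called 92 higher and 97 lower. They ranged over 14 to 508 with an array left out. The remaining alternatives without a block gave 300 to 457. Of the 440, 355 were also called after median scaling (358 in all) and 398 after quantile normalization (425). The 26 differences under TCDD became 13 after median scaling, 41 with a floor at the 30th percentile, 3 with only the groups compared, 15 without the trend, 1 with the Gapdh ratio and 1 to 113 with an array left out. The 18 differences under IDMB became 0 with only the groups compared (limma; 878 had an unadjusted p under 0.05 in the full fit), 11 without the trend and 1 to 35 with an array left out. The cause of these shifts was not tested, and each fit with an array left out also held fewer samples.

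Deviations of same-numbered EGF and UT arrays from their group means correlated at 0.030 (number 1) and -0.022 (number 2). With 2 EGF arrays their deviations mirror each other, so these values cannot decide whether a number marks a shared batch. With a replicate block the counts were 632 for EGF against UT, 178 for the difference under TCDD and 32 under IDMB. Of 353 named genes tested, 118 were called, 7 of them in every fit with an array left out. Values at the floor have no order, which limits genes near background.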

Other observations

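The AP-1 site TGANTCA, searched on both strands of the 250 bases upstream of the start, was found in 7 of 188 genes called higher with EGF that had a window (3.72%) and in 12 of 119 called lower (10.1%), against 4.74% of tested genes and 6.87% of all genes. These shares are descriptions without a test, and they say nothing of the factors that bind there.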
